A study of Drosophila melanogaster with 4 samples.

Results

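The head patterning gene oc (ocelliless, also known as orthodenticle) lies on the X chromosome of Drosophila melanogaster, and the results here concern the Psc clusters of the domain around it. Psc is a subunit of Polycomb repressive complex 1. A cluster is a stretch of the genome that the authors called as enriched for Psc. The members are all clusters that overlap X:8450000-8726000 (FlyBase release 5), a window of 276 kb. This window was selected on the deposited cluster lists themselves, as one of the longest runs of neighbouring clusters. It held 96 of the 13747 clusters in the 3 lists: 41 of 8687 in the combined list, 27 of 2628 in the replicate 1 list and 28 of 2432 in the replicate 2 list. Number, density and extent of the clusters therefore follow from the choice of the window and are given as a description, with no test.

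The material was whole wild-type Oregon-R embryos collected 14 to 16 h into development, with no transgene or treatment named in the labels. The 4 samples were 2 Psc chromatin immunoprecipitations (ChIP), numbered 1 and 2, and 2 inputs, numbered likewise. No values of the inputs were used here. Each ChIP sample has a cluster list of its own, and a further list covers the replicate set. Whole embryos mix all tissues, so a cluster does not tell in which cells Psc was bound, and nothing in the labels tells whether the replicates came from separate collections.

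Polycomb repressive complex 1 compacts chromatin and helps to keep developmental regulator genes silent in cells that do not use them. Together with Polycomb repressive complex 2, which places the histone mark H3K27me3, it can occupy long stretches around such genes, with strong sites at DNA elements called Polycomb response elements. The gene oc encodes a homeodomain transcription factor of the Otx family. It acts as a head gap gene in the early embryo and is later used in the development of the brain, the ocelli and the photoreceptors.

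No gene part could be assigned to a cluster, because cluster positions follow release 5 of the genome and the annotation at hand follows release 6. By gene order alone, that table places oc between the gene for the large subunit of chromatin assembly factor 1 (locus tag Dmel_CG12109) and Rubicon, and no listed gene overlaps oc. The next genes beyond the chromatin assembly gene are Crag, CG12659, CG12081 and CG12065. Beyond Rubicon follow CAH3, Ppt1, Ogg1 and CG11294. The LIM homeobox gene Lim1 is the 14th gene on that side and was named after the values were seen. Whether any of these genes lies under a cluster is not shown by the data used here.

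**Figure D1:**
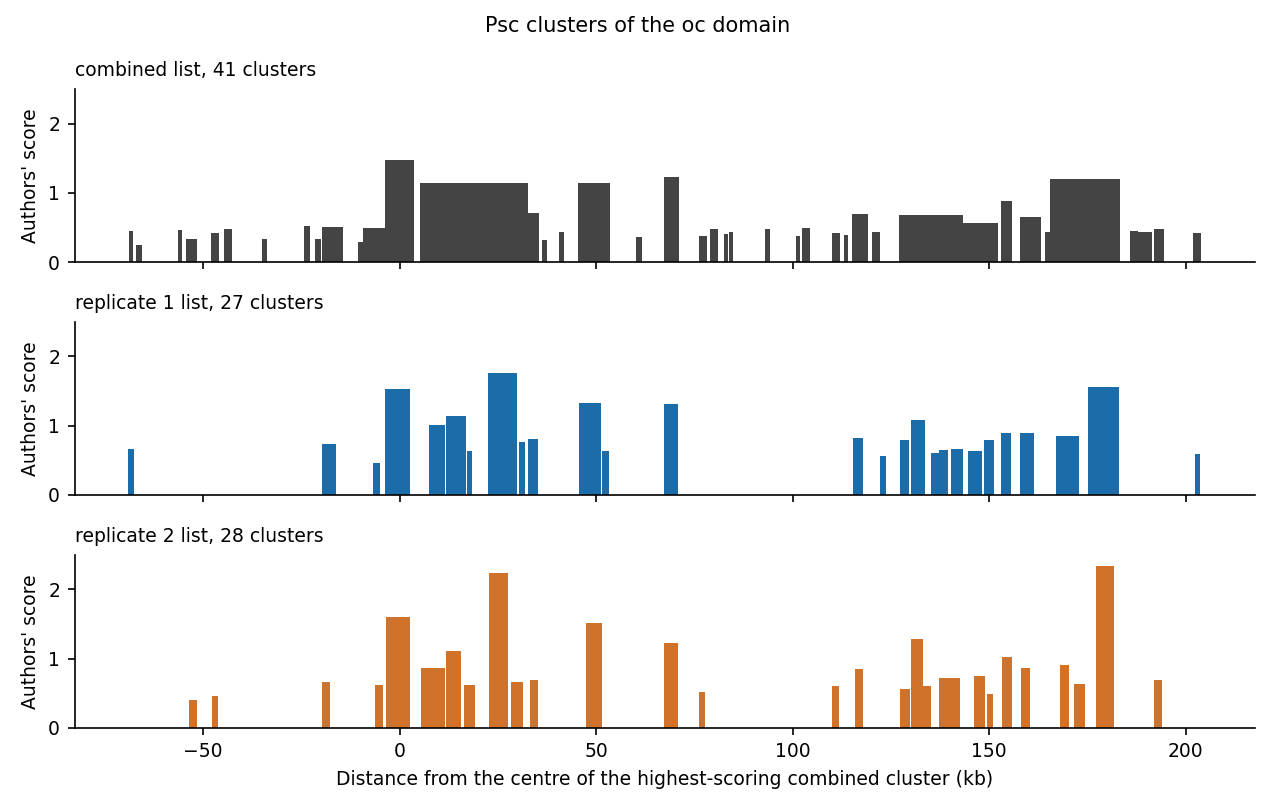
Psc clusters of the oc window in the combined, replicate 1 and replicate 2 lists. Each bar spans 1 cluster along the X (horizontal axis, kb from the centre of the combined cluster with the highest score), and its height is the authors' enrichment score, which has no named unit; tall clusters stand at the same places in all 3 lists, with a score of 1.48 at the origin in the combined list.

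The clusters of the window filled 33.0% of its sequence in the replicate 1 list and 29.9% in the replicate 2 list (31.5% ± 2.2, SD, n = 2). In the rest of the X the share was 4.83% in replicate 1 and 4.32% in replicate 2. In the combined list it was 58.8% of the window and 13.7% of the rest of the X. The window makes up 1.23% of the X, and it held 7.85% and 7.95% of the sequence in X clusters in replicates 1 and 2.

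The clusters were not spread evenly over the window. When combined clusters with gaps of at most 5 kb were joined, 11 stretches formed, and the longest of them held most of the covered sequence. The first, X:8496524-8574219, spanned 77.7 kb and was covered to 53.5% in replicate 1 and 47.5% in replicate 2. The second, X:8630819-8715368, spanned 84.6 kb and was covered to 51.3% and 44.0%. They contained 45.1% ± 0.69 and 46.3% ± 1.8 of the covered sequence of the window (SD, n = 2 for each). The remaining 114 kb of the window was covered to 5.42% in replicate 1 and 7.48% in replicate 2. The longest part free of clusters in both replicate lists was 32.2 kb (X:8598479-8630716), between these stretches, although the combined list had 7 clusters that touch it.

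**Figure D2:**
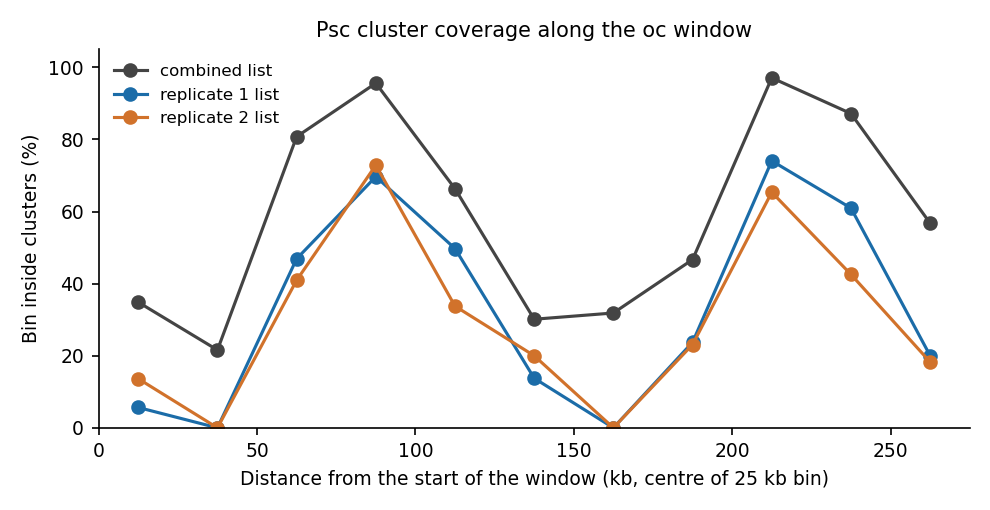
Share of each 25 kb bin of the oc window that lies inside Psc clusters (vertical axis, %), against distance from the start of the window (horizontal axis, kb), with 1 line for each list. Coverage has a maximum in each of the long stretches, 69.7% and 72.8% of a bin in the replicates in the first and 74.0% and 65.3% in the second, and both replicate lists are at 0 in a bin between them.

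The strongest site of the first stretch differed between the lists. In the replicates it was a site called as X:8543214-8550770 in replicate 1 and X:8543469-8548253 in replicate 2, with scores of 1.76 and 2.24. These scores were higher than 98.2% and 99.4% of the clusters in their lists. In the combined list this site lay inside a single cluster of 27244 bp (X:8526103-8553346), the 17th widest of that list, whose score was 1.15. That wide cluster took in 5 clusters of each replicate, which covered 72.7% and 75.3% of it, with scores from 0.63 to 1.76 in replicate 1 and from 0.62 to 2.24 in replicate 2.

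Directly beside it lay the combined cluster with the highest score of the window, X:8517193-8524366, at 1.48 (higher than 98.8% of the combined list). Its replicate counterparts were nearly alike in place and size. They ran from 8517200 to 8523496 in replicate 1 and from 8517297 to 8523565 in replicate 2, with widths of 6297 and 6269 bp and scores of 1.54 and 1.61. Among the 1294 pairs of clusters that match between the replicate lists over the whole genome, this site was 52nd by the lower of its percentiles, and the site at X:8543214-8550770 was 20th. Here a pair means that each cluster was the other's partner with the longest overlap.

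Other strong sites followed towards higher coordinates. The combined cluster X:8566133-8574219 had a score of 1.15, with highest replicate scores of 1.33 and 1.51 within it. The isolated combined cluster X:8587957-8591801 scored 1.23, with 1.31 and 1.23 in the replicates, and belonged to neither long stretch. It was the one cluster outside the long stretches that both replicate lists had. Of the 3 replicate 1 and 4 replicate 2 clusters there, 1 in each list had a partner in the other.

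In the second stretch the strongest site was the last wide cluster, X:8686302-8704025 in the combined list, with a score of 1.19. Replicate 1 had X:8695928-8703680 there at 1.56, and replicate 2 had X:8698006-8702539 at 2.33, the highest score of the window in that list and its 9th highest over the genome. The score difference of 0.77 was the largest among all 1294 pairs of the genome. The widths were 7753 bp in replicate 1 and 4534 bp in replicate 2. At the site X:8543214-8550770 the second largest difference of the window, 0.48, likewise went with a narrower cluster in replicate 2, 4785 bp against 7557 bp. The part of cluster width in these score differences was not tested.

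Before that site the second stretch had a series of moderate clusters. The combined cluster X:8647717-8664110 (16394 bp, score 0.68) held 5 replicate 1 and 4 replicate 2 clusters, which covered 79.2% and 79.1% of it. The highest of these scored 1.08 in replicate 1 and 1.29 in replicate 2, at nearly the same start, 8650886 and 8650892. The neighbouring combined cluster X:8664129-8672977 scored 0.57 and was covered to 71.6% in replicate 1 and 47.3% in replicate 2. Next, X:8673694-8676513 scored 0.88, with 0.90 and 1.02 in the replicates, and X:8678622-8683865 scored 0.65, with 0.90 and 0.86. At the start of the stretch, X:8635760-8639910 scored 0.69, with 0.83 and 0.84 in the replicates. In score, no matched pair of these sites differed as much between the replicates as the pair in the last wide cluster.

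The other combined clusters found in both replicate lists lay in the first stretch. X:8500994-8506341 scored 0.51, with 0.74 and 0.66 in the replicates. X:8511591-8517117 scored 0.49, with 0.46 and 0.61. X:8553522-8556179 scored 0.71, with 0.81 and 0.68.

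As a whole, the scores of the window lay above the middle of their lists. The median was 0.80 in replicate 1 and 0.71 in replicate 2, against 0.65 and 0.59 in the rest of the X. In the combined list it was 0.46 in the window and 0.43 in the rest of the X. Of the members, 25 of 27 in replicate 1, 24 of 28 in replicate 2 and 33 of 41 in the combined list were in the upper part of their own list, above the median score. Clusters of the rest of the X also scored above the middle of their lists, so a high score as such was not particular to the window. How many of them were above the list median was not counted. The median of the rest of the X was above 68.2%, 65.7% and 76.0% of the clusters of these lists. The top 5% by score held 3 members of the replicate 1 list, 4 of the replicate 2 list and 6 of the combined list. None of the replicate 1 or combined clusters of the window was in the top 1%, and 2 of replicate 2 were. Widths were larger too, with medians of 2657 bp and 2506 bp in the replicates, against 1784.5 bp and 1771 bp in the rest of the X.

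The replicate lists were then compared within the window. Of the replicate 1 clusters, 22 of 27 (81.5%, 95% Clopper-Pearson interval 61.9 to 93.7) overlapped a replicate 2 cluster by at least 1 bp, and the share over the whole replicate 1 list was 51.4%. Of the replicate 2 clusters, 23 of 28 (82.1%, 63.1 to 93.9) overlapped a replicate 1 cluster, and the share over the whole list was 58.7%. The intervals cover counting error only and treat neighbouring clusters as independent. Clusters filled 33.0% and 29.9% of the window in replicates 1 and 2, against 4.83% and 4.32% of the rest of the X. The window was chosen as a run of neighbouring clusters. These shares, and those of the combined list below, are not independent of that choice. Width moved with sharing, and the members are wide. Among clusters at or above the median width of their list, 20 of 22 (90.9%, 70.8 to 98.9) were shared in replicate 1 of the window and 76.3% in the whole list. In replicate 2 it was 22 of 24 (91.7%, 73.0 to 99.0) and 83.8%. Both whole-list shares lay within these intervals, which are no test because the window was chosen on the same lists. The part of width in the higher share of the window was not tested further, and that of cluster density was not tested.

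**Figure D3:**
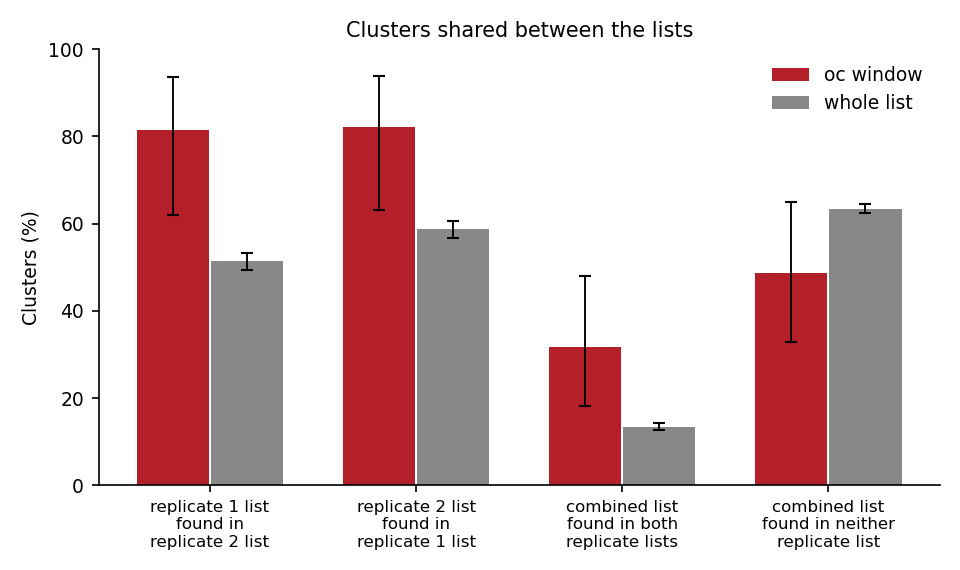
Share of clusters found in another list (vertical axis, %) for the oc window (red) and the whole list (grey), with exact 95% Clopper-Pearson intervals. The replicate shares are 81.5% and 82.1% in the window, above 51.4% and 58.7% in the whole lists, and the interval of the last red bar, 32.9 to 64.9, includes the whole-list value of 63.5%. The window was chosen on these lists, so the intervals are no test.

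By length, 64.9 kb of the window was covered in both replicate lists and 108.7 kb in at least 1 of them, a share of 59.7%. In the rest of the X, which is covered less densely, this share was 38.4%. The part of density in this difference was not tested. The 5 unshared replicate 1 clusters scored 0.56 to 0.67 and the 5 unshared replicate 2 clusters 0.40 to 0.69. The strongest were X:8451785-8453196 in replicate 1 (0.67) and X:8712743-8714765 in replicate 2 (0.69). In replicate 1, X:8572190-8573974 and X:8656084-8657932 missed a replicate 2 cluster by only 23 and 6 bp. The other unshared clusters lay 3585 bp or more from the nearest cluster of the other list: X:8643118-8644566 and X:8723035-8724354 in replicate 1, and X:8467273-8469184, X:8473108-8474600, X:8597012-8598478 and X:8630717-8632462 in replicate 2. Every one of these 10 clusters overlapped a combined cluster, as did all other replicate clusters of the window. This is close to the whole lists, where 96.3% of replicate 1 and 97.4% of replicate 2 clusters did so. For X:8643118-8644566 the overlap was only 0.14% of its length.

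Across the 20 matched pairs of the window, scores of the replicates rose together, at a rank correlation (Spearman's rho) of 0.90 and a linear one (Pearson's r) of 0.92. Over all 1294 pairs these were 0.80 and 0.91. The pairs come from the same 2 samples and are a description of them. Replicate 2 had the higher score in 11 pairs (55%, and 42.4% of all pairs) and the narrower cluster in 14 (70%, and 56.5% of all pairs). The median difference between the replicates, without its sign, was 0.12 in score in the window and 0.098 over all pairs. It was 283 bp in the start and 557 bp in the end of the cluster in the window, against 212 bp and 224.5 bp over all pairs. For cluster widths the rho was 0.49 in the window and 0.74 over all pairs. Scores of both lists are set side by side here although their scaling is not known to be the same.

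**Figure D4:**
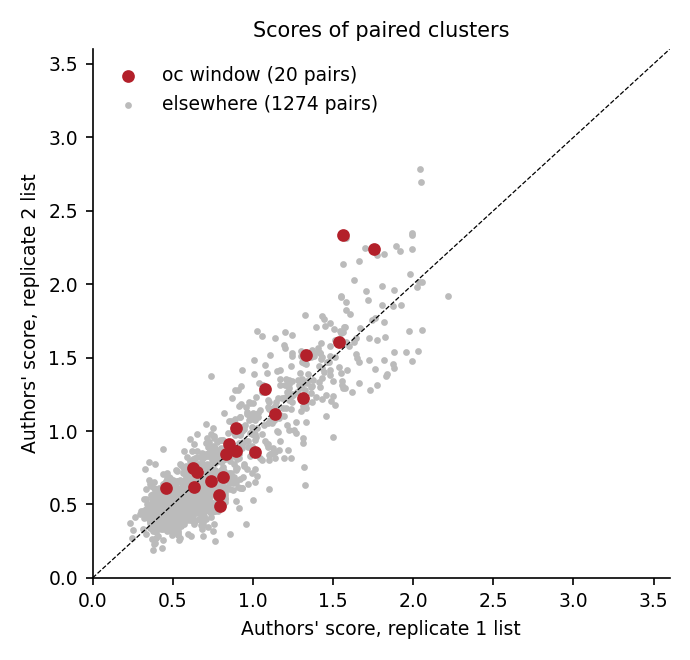
Authors' scores of matched clusters in the replicate 1 list (horizontal axis) and the replicate 2 list (vertical axis), with the 20 pairs of the oc window in red, the other pairs in grey and a dashed line of equal scores. Of the red points, 9 of 20 lie within 0.1 of equal scores, and the pair with scores of 1.56 and 2.33 is the farthest above it.

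Of the 41 combined clusters, 13 (31.7%, 18.1 to 48.1) overlapped clusters of both replicate lists, against 13.5% of the whole combined list. When 50% of the cluster had to be covered, the share fell to 19.5% in the window, against 11.1% of the list. These 13 covered 115 kb and had a median score of 0.71. Another 20 (48.8%, 32.9 to 64.9) overlapped none, against 63.5% of the whole list; they covered 30.5 kb, with a median width of 1314 bp and scores from 0.25 to 0.53. A further 3 met replicate 1 alone (7.3%, against 13.0% of the whole list) and 5 replicate 2 alone (12.2%, against 10.1%). Among clusters at or above the median width, 13 of 29 in the window were in both (44.8%, 26.4 to 64.3), against 26.9% of the list, and 9 of 29 in neither (31.0%, 15.3 to 50.8), against 36.4%.

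The highest-scoring of the clusters seen in no replicate list was X:8496524-8497978, at 0.53. All 13 clusters in both lists lay in the long stretches, except X:8587957-8591801.

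No cluster of any list crossed the limits of the window. The outermost combined clusters inside it, X:8451871-8453098 and X:8722701-8724693, scored 0.46 and 0.43. The nearest combined clusters beyond it were X:8420446-8422082, with a score of 0.45, and X:8742529-8744145, with a score of 0.46. Joined within 10 kb, the combined clusters formed 1 domain of 272.8 kb, at this gap the longest of the X and the 3rd longest of the genome. The replicate lists, which have fewer clusters, broke into 6 and 7 domains there. Their longest lay in the second stretch and spanned 67.4 kb in replicate 1 and 71.8 kb in replicate 2, each the 3rd longest on the X in its list.

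The oc window was last set beside the other long domains of the X, the longest of which spanned 176.5 kb (X:4248820-4425322) and the next 148.8 kb (X:17632993-17781817). Replicate clusters covered 31.5% ± 2.2 of the oc window, 37.4% ± 2.5 of the first and 33.3% ± 0.090 of the second (SD, n = 2 for each). The median score averaged 0.75 ± 0.062 in the oc window, against 0.64 ± 0.018 and 0.71 ± 0.053 (SD, n = 2 for each). The share of sequence in both replicate lists, of that in either, was 59.7%, 60.1% and 57.5%. Shared clusters made up 81.5% and 82.1% of replicates 1 and 2 in the oc window, 84.6% and 85.2% in the first and 75% and 70.6% in the second. Combined clusters in both replicate lists made up 31.7% in the oc window, 48.7% in the first and 40.0% in the second. Each of these shares was above that of the whole list. For the replicate clusters of the second domain (12 of 16 and 12 of 17) the intervals were 47.6 to 92.7 and 44.0 to 89.7. They include the whole-list shares of 51.4% and 58.7%. The SDs include differences between the lists that all regions share, so the regions are better compared within a list. Coverage in replicates 1 and 2 was 33.0% and 29.9% in the oc window. It was 35.7% and 39.2% in the first domain, and 33.4% and 33.2% in the second. Median scores were 0.80 and 0.71 in the oc window, 0.63 and 0.65 in the first domain, and 0.75 and 0.67 in the second. In each replicate list the oc window thus had the lowest coverage and the highest median score. This did not hold in the combined list. Its coverage there was 58.8%, between the 67.4% of the first domain and the 55.8% of the second. The combined median score of the oc window, 0.456, was below the 0.467 and 0.468 of these domains. These differences were not tested, because all 3 regions were chosen by the same lists.

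**Figure D5:**
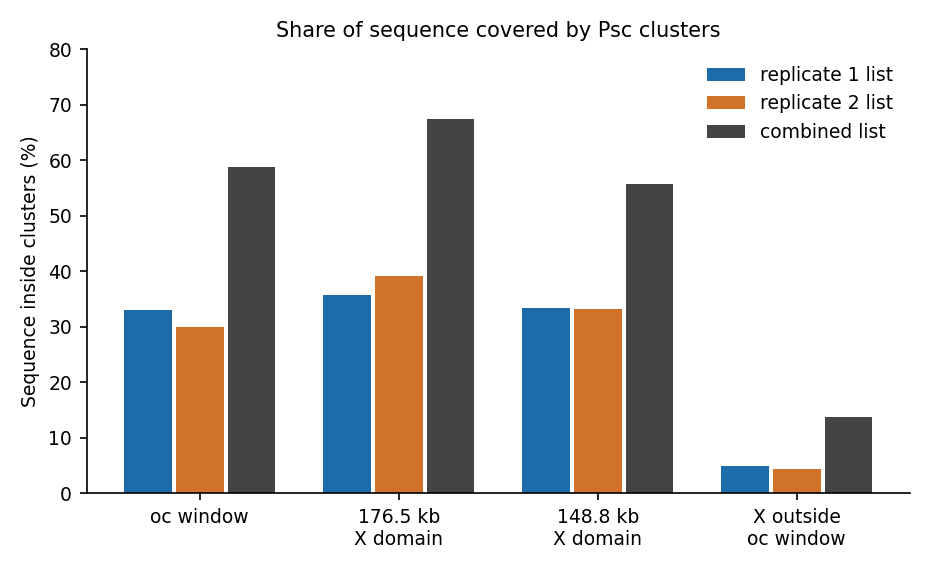
Share of sequence inside Psc clusters (vertical axis, %) in the oc window, in the other long domains of the X and in the X outside the oc window, with 1 bar for each list. The oc window stands at 33.0%, 29.9% and 58.8% in the replicate 1, replicate 2 and combined lists, close to the other long domains and above the rest of the X, at 4.83%, 4.32% and 13.7%.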

How the data were processed

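Psc ChIP of 2 samples was analysed from cluster lists. Inputs with matching numbers in the sample titles exist for both, but no values of the inputs were used. The authors' deposited score of each cluster has no named unit or scale and was used within a list, as a value or as the percent of clusters scoring lower. Scores of matched clusters were also set side by side between the replicate lists, whose scaling may differ. Reads were aligned with Bowtie 0.12.7, per the submitters' processing notes. Coordinates are 1-based on FlyBase release 5, per the file headers. How clusters were called, and how the combined list was made, is not given in the sources used here. Read depth is unknown, so single scores carry no error, and a region absent from a list has no known signal.

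Clusters overlapping the window were counted with Python 3.11.15, pandas 2.3.3, numpy 2.4.6 and scipy 1.17.1, while overlaps were checked against bedtools 2.31.1 and tested on simulated data. Figures used matplotlib 3.10.9. Gene order came from a RefSeq table of release 6. Named regions are the combined clusters found in both replicate lists, the highest-scoring and widest ones, and clusters missing from the other replicate list. The window, the named regions and the measures were chosen with earlier results of these data known. Alternatives were a 50% overlap, the upper part of each list by score, joining within 1000 bp, other domain gaps and each replicate alone. Head patterning genes elsewhere were not located, for lack of a release 5 annotation.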

Additional observations from a re-analysis of the deposited data

How the results depend on the processing

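Of 49 alternatives to 18 values, 26 stayed within the spread of the replicates, the counting interval or 1.5 times the count. These limits are unlike, so the count is a rough one. Coverage, medians and top percentile of the combined list, shared bases and domain extent had no such limit, and every change in them counted as moved. A fall from 27 to 18 replicate 1 clusters, on joining within 1000 bp, did not. Each replicate alone always lies within the SD of 2 values, so leaving one out is no check of stability and is not counted. With 50% of the cluster covered, 19.5% of combined clusters were in both replicates. Joining clusters within 1000 bp gave 24 combined clusters, 61.5% combined coverage and 63.5% shared bases. Only clusters at or above the list median score gave 54.0% and 61.1% for the last 2. Narrowing the window to the first stretch (joined within 5 kb) left 11 combined, 11 replicate 1 and 10 replicate 2 clusters, by construction. Combined coverage was then 80.7%, mean replicate coverage 50.5%, shared bases 71.5%, shared replicate 2 clusters 100% and combined clusters in both replicates 54.5%. The combined median score was 0.51, and median widths were 2658 bp (combined) and 3486.75 bp (replicate mean). Ranked within the X, the highest combined score was above 99.0% of clusters. Among wide clusters, an alternative chosen after seeing the data, combined clusters in neither replicate fell to 31.0%, since narrow clusters are left out. With a gap of 5 kb the domain of 272.8 kb broke into 11. The piece with the highest combined score spanned 77.7 kb (6th longest of the X, 23rd of the genome). The longest piece, the second stretch, spanned 84.6 kb (2nd of the X, 17th of the genome). With 25 kb the domain became 381.9 kb (3rd of the X, 12th of the genome). The longest replicate domains at 10 kb lay in the second stretch and spanned 67.4 and 71.8 kb. The long X domains chosen for comparison with a gap of 5 kb had 34.0% coverage, against 35.4%. One combined cluster counted as in replicate 1 (X:8641073-8643119) was covered to 0.098% only. No paired analysis of input and ChIP was possible because the inputs have no list of their own. Unknown read depth limits all scores.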
